A study of Mus musculus with 12 samples.

Results

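A set of 10 genes known as markers of the choroid plexus, *Ttr*, *Kl*, *Folr1*, *Clic6*, *Aqp1*, *Otx2*, *Enpp2*, *Sostdc1*, *Prlr* and *Slc4a5*, were followed through hypothalamus libraries of 12 male mice. They were chosen by symbol, and all 10 were found among the 32494 genes of the deposited table. Every mouse carried floxed Smc3 and received tamoxifen. The 7 mice without the Camk2a-cre/ERT2 transgene were labelled WT and the 5 mice with it cKO. The sample titles of all 12, those labelled cKO included, also carry the word control. Camk2a-cre/ERT2 is a tamoxifen-activated recombinase driven by a promoter of forebrain excitatory neurons, so epithelial cells are not its intended target. The libraries stand for a time 5 weeks after tamoxifen. The labels state 8 weeks of age but not for which step. The study asks what loss of Smc3, a core subunit of the cohesin ring, does in adult forebrain neurons. Nothing in the labels says where the hypothalamus was cut from its neighbours or whether ventricular tissue was removed.

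The choroid plexus is a folded epithelium on a vascular stroma that hangs into the brain ventricles and secretes cerebrospinal fluid. Its cells make very large amounts of transthyretin, pump ions and water from blood to fluid, and carry folate, thyroid hormone and other hormones across. It lines the roof of the third ventricle above the thalamus, whereas the hypothalamus borders the floor and lower walls of that ventricle. Several of the 10 genes are also made by other brain cells: *Enpp2* by oligodendrocytes, *Prlr* by hypothalamic neurons and *Kl* by neurons.

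Depth was 17.1 to 24.0 M reads (megareads) in 11 libraries and 68.7 M in WT 1. A level of 3 reads, the smallest taken as detected, was 0.0436 to 0.178 CPM (reads per gene scaled by the authors to a common library total). No pair of libraries within a group matched within sampling noise, so each was counted as 1 sample. *Smc3* itself went against the labels, with libraries labelled WT at 81.6 ± 3.14 CPM (SD, n = 7) and libraries labelled cKO at 131 ± 10.3 CPM (SD, n = 5). limma put the log2 difference at 0.67 (SE 0.05, adjusted p = 3.06e-05). Directions below therefore refer to the libraries labelled cKO and not to a shown loss of *Smc3*.

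The level of *Ttr* was low for a choroid plexus signature, while other plexus genes ran from 0 reads in some libraries to well above it. *Ttr*, the defining transcript of the epithelium, was at 1.12 to 7.92 CPM. Per kilobase of exon (union of GENCODE M21 exons, a length used here because the authors' annotation is not given) *Ttr* had a mean of 2.92 CPM per kb. That was above 31.4% of the 14515 tested genes with a length, whose median was 5.92 CPM per kb. On the same scale *Enpp2* was at 37.5, *Clic6* at 3.51, *Prlr* at 2.0, *Otx2* at 1.92, *Sostdc1* at 1.01, *Kl* at 0.478, *Folr1* at 0.338, *Aqp1* at 0.101 and *Slc4a5* at 0.0501 CPM per kb. *Kcnj13*, a potassium channel of plexus epithelium, had 0 reads in 2 libraries and at most 0.427 CPM. *Tmem72* had 0 reads in 1 library and at most 0.475 CPM, and *Wfdc2* had 3 reads or fewer in all 12. These 3 genes were singled out as the lowest of a list of other plexus genes after their values were seen. Of the 33 genes of that list in the table, 24 averaged 1 CPM or more, with means of 57.4 CPM for *Slc4a2*, 35.3 CPM for *Sulf1*, 28.2 CPM for *Igf2* and 10.4 CPM for *Lmx1a*. The hypothalamic genes *Sim1* (10.9 to 27.1 CPM) and *Nkx2-1* (6.49 to 33.0 CPM) were present in every library, while other genes of the 12-gene hypothalamic list nearly vanished in some. *Oxt* was at 0.280 CPM in cKO 12 and 0.651 CPM in WT 5 and reached 348 CPM, *Avp* ran from 0.793 CPM in cKO 12 to 125 CPM, and in WT 11 *Hcrt* was at 0.372 and *Pmch* at 1.03 CPM, with up to 79.2 and 138 CPM elsewhere. The 10 genes are therefore named below by their symbols and not as a readout of plexus content.

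No member passed the threshold between the groups. The test was limma on log2(CPM + 1) over the 15359 genes that averaged 1 CPM or more, with a Benjamini-Hochberg adjusted p below 0.05. By that rule 14.1% of all tested genes were called. Of the 10 members 7 were tested, and 0 were higher and 0 lower, where 6.54% of all tested genes were higher and 7.60% lower. At an unadjusted limma p below 0.05 there was 1, *Clic6*, where 31.1% of all tested genes were. The median log2 fold change of the 7 was -0.085, beside 0.0093 over all tested genes. *Folr1*, *Aqp1* and *Slc4a5* were under the minimum of 1 CPM, and none of the 3 passed in a limma fit over all genes above 0, which called 4.86% of 31802 genes. An edgeR quasi-likelihood test of recovered reads over the same 31802 genes also called 0 of the 10 members and 4.75% of all genes. At an unadjusted p below 0.05 there were 3 of the 10 in either fit, *Clic6*, *Aqp1* and *Slc4a5*, where 19.9% of all genes were in limma and 19.8% in edgeR. The group ranges overlapped in all 10 members, and they did not overlap in 6.73% of tested genes.

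**Figure D1:**
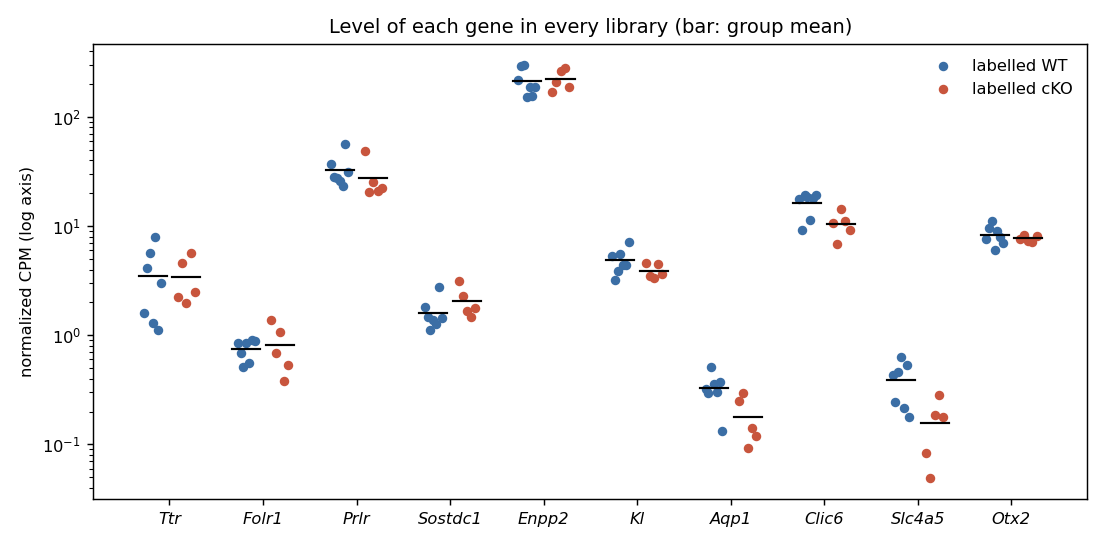
Normalized CPM (log axis) of each of the 10 genes in the 7 libraries labelled WT and the 5 labelled cKO, with each dot 1 library and each bar a group mean. Ranges overlap for every gene, and levels run from 0.049 CPM (*Slc4a5* in cKO 9) to 301 CPM (*Enpp2* in WT 5).

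**Figure D2:**
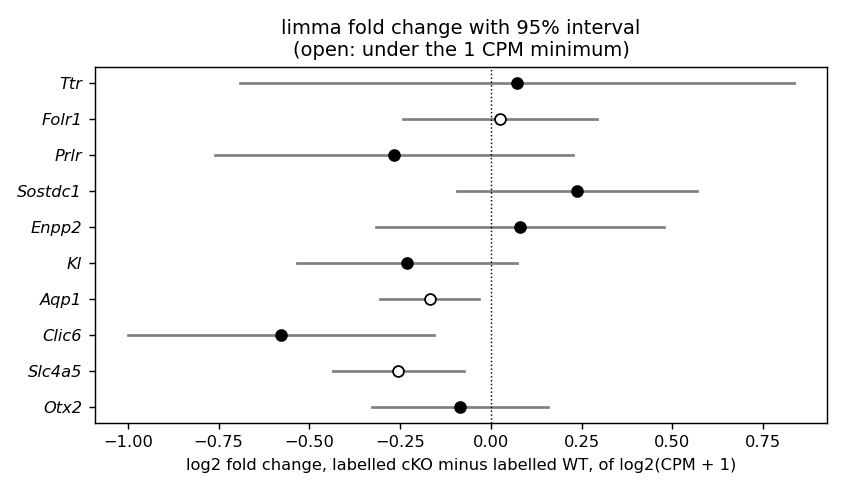
The limma log2 fold change of each gene, libraries labelled cKO minus labelled WT on the log2(CPM + 1) scale, with its 95% interval before adjustment. Filled points come from the fit over genes averaging 1 CPM or more and open points from the fit over all genes above 0. The intervals of *Clic6*, *Aqp1* and *Slc4a5* lie below 0, and none of the 3 passed after adjustment over all genes.

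Among the secreted products, *Ttr* encodes transthyretin, the carrier of thyroid hormone and of retinol-binding protein. In the libraries labelled WT it was at 1.58 (WT 1), 4.09 (WT 4), 5.63 (WT 5), 1.30 (WT 6), 7.92 (WT 7), 1.12 (WT 11) and 2.98 CPM (WT 15). In those labelled cKO it was at 2.22 (cKO 8), 4.61 (cKO 9), 1.96 (cKO 12), 5.65 (cKO 13) and 2.49 CPM (cKO 14). WT 7, cKO 13 and WT 5 were highest, WT 11 and WT 6 lowest, and the cKO range lay within the WT range. The spread over all libraries was 7.10-fold, resting on 27 to 183 reads. Group means were 3.52 ± 2.54 CPM (SD, n = 7) and 3.39 ± 1.64 CPM (SD, n = 5). On the log2 scale limma put the difference at 0.073 (SE 0.36, adjusted p = 0.916), with a 95% interval from -0.69 to 0.84. That interval is before adjustment, so changes within it, and somewhat larger ones, could go uncalled in these libraries.

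*Enpp2* encodes autotaxin, the secreted enzyme that makes lysophosphatidic acid, and was the most abundant of the 10 per kilobase. Its values were 219 (WT 1), 291 (WT 4), 301 (WT 5), 151 (WT 6), 186 (WT 7), 156 (WT 11) and 187 CPM (WT 15), against 168 (cKO 8), 210 (cKO 9), 265 (cKO 12), 279 (cKO 13) and 188 CPM (cKO 14). WT 4, WT 5, cKO 12 and cKO 13 were the 4 highest, 2 of each label, and the ranges overlapped nearly entirely. Means were 213 ± 61.1 CPM (SD, n = 7) and 222 ± 48.4 CPM (SD, n = 5), which limma put on the log2 scale at 0.081 (SE 0.18, adjusted p = 0.804, 95% interval -0.32 to 0.48).

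*Enpp2* moved with oligodendrocyte genes from mouse to mouse. The same 4 libraries had the highest summed level of 10 oligodendrocyte genes, *Mbp* among them, at 9276 to 10634 CPM where the other 8 had 4408 to 7433 CPM. They also had the lowest summed level of 12 hypothalamic neuron genes, at 82.7 to 261 CPM where the others had 403 to 766 CPM. Over the 12 libraries *Enpp2* had a Pearson r of 0.973 and a Spearman rho of 0.916 with the mean log2 level of the oligodendrocyte list (permutation p = 1e-05, the smallest the 100000 resamples can give, and 0.00011, or 0.0011 and 0.0121 adjusted over 110 relations of members with 11 lists). Without WT 5 and cKO 13, the libraries farthest from the median, r was 0.960, and within the 7 WT libraries it was 0.970. The lists are not independent of each other. *Enpp2* also had r = 0.908 with 8 endothelial genes, 0.908 with 7 habenular genes and -0.813 with 12 ependymal cilia genes, which complete the 4 relations of 110 past 0.05 in both adjusted permutation values. With the oligodendrocyte level as a covariate the log2 fold change of *Enpp2* was 0.023 (limma adjusted p = 0.771).

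*Sostdc1*, which encodes a secreted antagonist of BMP and Wnt signals, was at 1.82 (WT 1), 1.48 (WT 4), 1.12 (WT 5), 1.39 (WT 6), 1.25 (WT 7), 2.77 (WT 11) and 1.42 CPM (WT 15), and at 3.15 (cKO 8), 2.30 (cKO 9), 1.68 (cKO 12), 1.47 (cKO 13) and 1.78 CPM (cKO 14). cKO 8 and WT 11 were the highest. Means were 1.61 ± 0.556 CPM (SD, n = 7) and 2.08 ± 0.673 CPM (SD, n = 5), which limma put on the log2 scale at 0.24 (SE 0.15, adjusted p = 0.315), on 24 to 125 reads. It was 0.12 without cKO 8 (adjusted p = 0.605) and 0.33 without WT 11 (adjusted p = 0.122). *Kl*, which encodes Klotho, the co-receptor of FGF23 that is also shed into cerebrospinal fluid, ranged from 3.20 to 7.12 CPM in the WT libraries (median 4.42) and from 3.36 to 4.62 CPM in the cKO libraries. The 3 highest were WT 15, WT 6 and WT 1, and the other WT libraries lay within or below the cKO range. Means were 4.85 ± 1.29 CPM (SD, n = 7) and 3.92 ± 0.599 CPM (SD, n = 5), which limma put on the log2 scale at -0.23 (SE 0.14, adjusted p = 0.286). Without WT 15, its highest library, it was -0.15 (adjusted p = 0.441).

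Of the receptors, *Folr1* encodes folate receptor alpha, which moves folate from blood into the fluid. It was at 0.843 (WT 1), 0.690 (WT 4), 0.512 (WT 5), 0.850 (WT 6), 0.562 (WT 7), 0.909 (WT 11) and 0.890 CPM (WT 15), and at 1.38 (cKO 8), 0.686 (cKO 9), 1.07 (cKO 12), 0.380 (cKO 13) and 0.533 CPM (cKO 14). The highest and the lowest values were both in libraries labelled cKO, and the reads numbered 8 to 58. The exact permutation p, two-sided over all divisions of the libraries into 7 and 5, was 0.856, and limma over all genes above 0 put the difference at 0.025 log2 units (SE 0.13, adjusted p = 0.928).

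*Prlr* encodes the prolactin receptor, which is abundant in the plexus and also marks prolactin-sensing hypothalamic neurons. It was at 37.3 (WT 1), 28.3 (WT 4), 27.4 (WT 5), 25.9 (WT 6), 23.3 (WT 7), 56.4 (WT 11) and 31.1 CPM (WT 15), and at 49.0 (cKO 8), 20.7 (cKO 9), 25.2 (cKO 12), 20.8 (cKO 13) and 22.2 CPM (cKO 14). WT 11 and cKO 8 stood apart, 1 of each label. Means were 32.8 ± 11.3 CPM (SD, n = 7) and 27.6 ± 12.1 CPM (SD, n = 5), which limma put on the log2 scale at -0.27 (SE 0.23, adjusted p = 0.458). It was -0.13 without WT 11 (adjusted p = 0.703), -0.49 without cKO 8 (adjusted p = 0.0997) and -0.35 without both (adjusted p = 0.0699). Of the 11 lists *Prlr* had the relation farthest from 0 with the cortical and striatal list. There r was 0.801 (permutation p = 0.00439, adjusted 0.0805) and rho 0.65 (permutation p = 0.0252, adjusted 0.231). Without WT 1 and WT 11 r was 0.702, and within the WT libraries 0.857. This relation did not pass after adjustment. With that list level as a covariate *Prlr* was at -0.17 (limma adjusted p = 0.475).

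WT 11 and cKO 8 also stood apart in *Lmx1a*, a transcription factor of the roof plate and plexus that also marks posterior hypothalamic and subthalamic neurons. This gene was singled out after its values were seen. *Lmx1a* had 0 reads in WT 11 and 6 reads (0.252 CPM) in cKO 8, and it was at 3.87 to 24.3 CPM in the other 10. *Sostdc1* was also highest in these 2 libraries. The Pearson r of *Sostdc1* with *Prlr* over 12 libraries was 0.642 (permutation p = 0.0238) and the Spearman rho 0.301 (permutation p = 0.341). Without WT 11 and cKO 8 r was -0.18, so the relation rests on them. Within the 7 WT libraries, WT 11 included, it was 0.95.

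**Figure D3:**
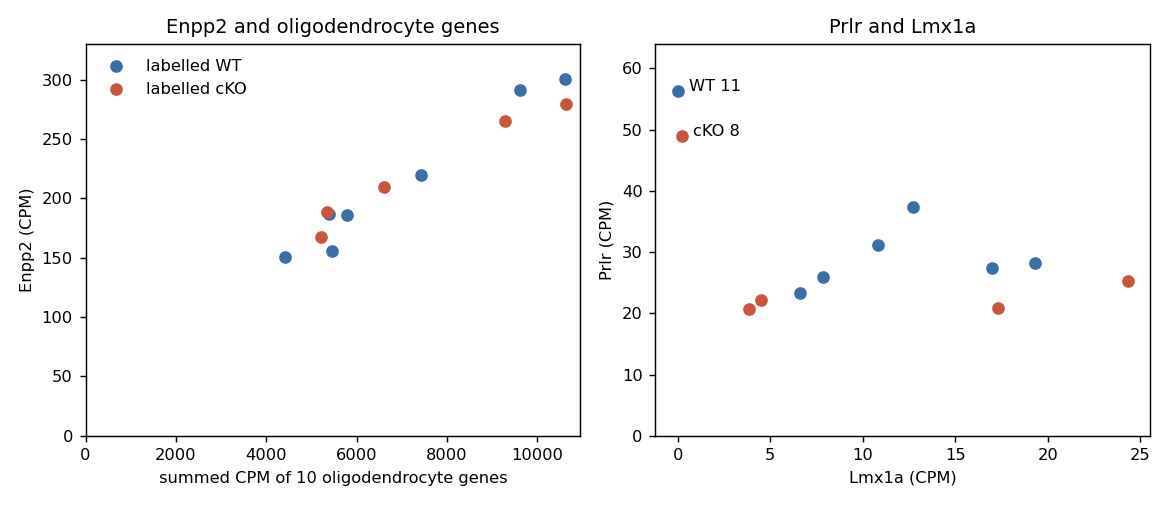
Left, *Enpp2* (CPM) against the summed CPM of 10 oligodendrocyte genes, and right, *Prlr* (CPM) against *Lmx1a* (CPM), with each dot 1 library coloured by its label. *Enpp2* rises with the oligodendrocyte sum in both groups, and WT 11 and cKO 8 combine the highest *Prlr* (56.4 and 49.0 CPM) with *Lmx1a* at 0 and 0.252 CPM.

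The largest fold change among the tested members was that of *Clic6*, an intracellular chloride channel protein of secretory epithelia. It was at 17.7 (WT 1), 9.12 (WT 4), 19.2 (WT 5), 18.4 (WT 6), 11.2 (WT 7), 18.2 (WT 11) and 19.3 CPM (WT 15), and at 10.7 (cKO 8), 6.81 (cKO 9), 14.2 (cKO 12), 11.1 (cKO 13) and 9.23 CPM (cKO 14). Of the 7 WT libraries 5 lay above every cKO library, while WT 4 and WT 7 lay inside the cKO range. Means were 16.2 ± 4.16 CPM (SD, n = 7) and 10.4 ± 2.7 CPM (SD, n = 5), a ratio of 0.644 on 139 to 1216 reads. On the log2 scale limma put the difference at -0.58 (SE 0.20, adjusted p = 0.0635, 95% interval -1.0 to -0.16), and the exact permutation p was 0.0278, one of 10 such values and not adjusted.

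In the authors' deposited table *Clic6* was listed at -0.64 (log2) with an FDR of 0.0411, the only member of the 10 under 0.05, where 4.94% of the 32494 genes in that table were. The call changed with the setting. *Clic6* was past the limma threshold without WT 4 (-0.70, adjusted p = 0.0221), without WT 7 (-0.65, adjusted p = 0.0485) and without cKO 12 (-0.69, adjusted p = 0.0402), and it had an adjusted p up to 0.153 without each other mouse. In a DESeq2 fit of recovered reads, which called 17.9% of genes, the adjusted p was 0.0143, and in edgeR's quasi-likelihood test, which called 13.7%, it was 0.0512.

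*Aqp1* and *Slc4a5* were near the limit of detection. *Aqp1* encodes the water channel of the apical plexus membrane, and was at 0.320 (WT 1), 0.296 (WT 4), 0.512 (WT 5), 0.358 (WT 6), 0.303 (WT 7), 0.372 (WT 11) and 0.133 CPM (WT 15), against 0.252 (cKO 8), 0.294 (cKO 9), 0.0933 (cKO 12), 0.142 (cKO 13) and 0.118 CPM (cKO 14). Apart from WT 15, all WT libraries lay above all cKO libraries, by margins as small as 0.296 against 0.294 CPM. This rests on 2 to 22 reads per library, with 3 reads or fewer in 4 libraries. The exact permutation p was 0.0366 (one of 10, not adjusted) and the limma adjusted p over all genes above 0 was 0.149.

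*Slc4a5* encodes a sodium bicarbonate cotransporter. It was at 0.436 (WT 1), 0.246 (WT 4), 0.465 (WT 5), 0.627 (WT 6), 0.216 (WT 7), 0.537 (WT 11) and 0.178 CPM (WT 15), against 0.0839 (cKO 8), 0.0490 (cKO 9), 0.187 (cKO 12), 0.285 (cKO 13) and 0.178 CPM (cKO 14). The 4 highest libraries were labelled WT and the 2 lowest cKO, on 1 to 30 reads. The exact permutation p was 0.0240 (one of 10, not adjusted), the limma adjusted p over all genes above 0 was 0.0998 and the edgeR adjusted p was 0.0863. The authors' deposited table lists it at -1.31 (log2) with an FDR of 0.0603.

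*Otx2*, the homeobox transcription factor required to form the plexus, varied least. It was at 7.65 (WT 1), 9.66 (WT 4), 11.1 (WT 5), 6.09 (WT 6), 9.0 (WT 7), 8.01 (WT 11) and 7.03 CPM (WT 15), and at 7.64 (cKO 8), 8.33 (cKO 9), 7.32 (cKO 12), 7.12 (cKO 13) and 8.17 CPM (cKO 14). The highest and lowest values were both WT and the 5 cKO libraries lay between them. The span was 1.82-fold over all libraries, the smallest of the 10, and limma put the log2 difference at -0.085 (SE 0.11, adjusted p = 0.652). *Otx2os1*, which overlaps 154 exonic bases on the opposite strand in GENCODE M21, was at 0.0445 CPM in the WT mean, so it could add little to an unstranded count. *Gm49154* shares 168 exonic bases on the same strand and has no CPM value here, so what it adds was not tested.

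No 1 pattern over mice ran through all 10 genes. Of the 45 pairs of members, 0 passed 0.05 after adjustment of either the Pearson or the Spearman permutation p, and 7 had an unadjusted Pearson p below it. The median r over the pairs was -0.055, with 26 pairs negative. The highest was *Slc4a5* with *Clic6*, with r = 0.735 (permutation p = 0.00818, adjusted 0.231), rho = 0.594 (permutation p = 0.0467, adjusted 0.307), 0.83 without WT 15 and cKO 9 and 0.537 within WT. Some pairs had the same extreme libraries. *Enpp2* and *Otx2* both had WT 5 highest, WT 4 next and WT 6 lowest, with r = 0.521 over 12 libraries (permutation p = 0.0813, adjusted 0.311) and 0.0759 without WT 5 and WT 6. *Prlr* and *Sostdc1* shared WT 11 and cKO 8, as described above. The highest value of a member fell in 6 different libraries and the lowest in 7. WT 7, highest in *Ttr*, ranked 9th of 12 in *Folr1*, 9th in *Prlr* and 11th in *Sostdc1*. WT 11, lowest in *Ttr*, ranked 1st in *Prlr* and 2nd in *Sostdc1*, *Aqp1* and *Slc4a5*. Against *Ttr* over 12 libraries, 9 relations were computed and 0 passed 0.05 after adjustment. The lowest was *Folr1*, with a Pearson r of -0.662 (permutation p = 0.0186, adjusted 0.154) and a Spearman rho of -0.72 (permutation p = 0.0108, adjusted 0.0972). Without WT 7 and cKO 13 r was -0.536, and within the 7 WT libraries it was -0.887. The highest was *Otx2*, at r = 0.573 (permutation p = 0.0512, adjusted 0.154) and rho = 0.455 (permutation p = 0.144, adjusted 0.258), with 0.744 without those libraries and 0.709 within WT.

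**Figure D4:**
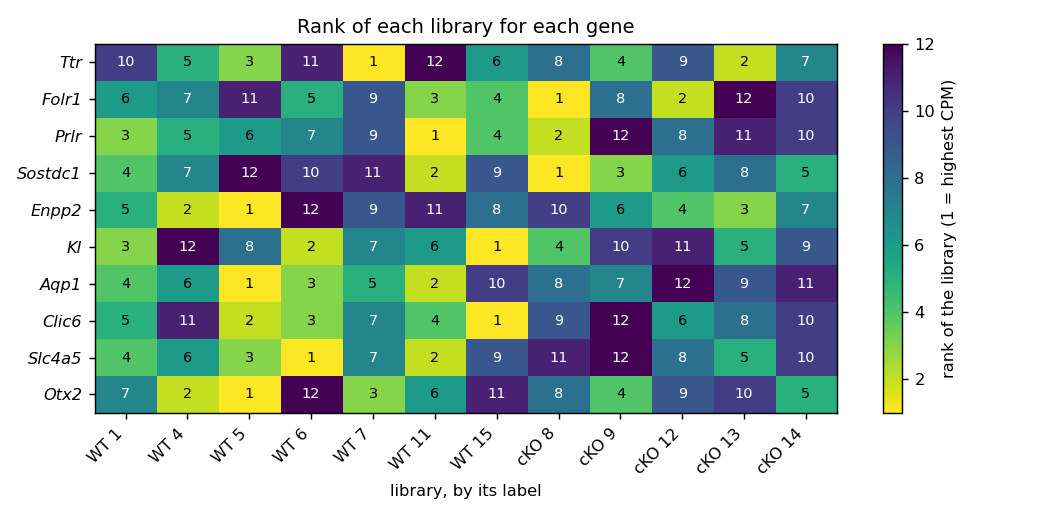
Rank of each of the 12 libraries (columns, by label) for each of the 10 genes (rows), where 1 is the highest CPM. No column is high or low throughout, and the highest values fall in 6 libraries.

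The genes most like *Ttr* over the 12 libraries, by Pearson r of log2(CPM + 1) among 15358 tested genes, were *Orc6* (0.911), *1700123O20Rik* (0.870), *Rell1* (0.869), *Nup54* (0.867), *Fzd4* (0.843), *A430005L14Rik* (0.842), *Cebpd* (0.841), *Slc9a3r1* (0.836), *Hddc3* (0.833) and *Tusc2* (0.833). These are values picked as the highest of many and carry no test. None of the 10 is on the list of other plexus genes, and 0 of the 24 tested genes of that list and 0 members were among the 100 most like *Ttr*. *Otx2* ranked 616th and *Enpp2* 1041st. *Prlr* ranked 14741st, with r = -0.598.

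A list of 34 other genes known from the plexus, chosen like the members with earlier results of these data known, was set beside them. Of the 34, 33 were in the table (*Mfrp* was not found by that symbol), 9 were under 1 CPM, *Kcnj13*, *Kcne2*, *Cldn2* and *Tmem72* among them, and 24 were tested. None was higher and 1 was lower, *Epn3*, an epsin of the endocytic coat, at 17.8 ± 4.37 CPM (SD, n = 7) and 12.2 ± 2.26 CPM (SD, n = 5). This is 4.17% of the tested genes of the list, where 7.60% of all tested genes were lower. For *Epn3* limma put the log2 difference at -0.50 (SE 0.16, adjusted p = 0.0476), with ranges of 12.7 to 24.2 and 9.05 to 14.4 CPM. *Epn3* moved with the thalamic list described below, with a Pearson r of 0.972 and a Spearman rho of 0.965 over 12 libraries (permutation p = 1e-05 for each, the smallest the resamples can give, a relation singled out after its values were seen). Without WT 11 and cKO 12 r was 0.983, and within the 7 WT libraries it was 0.978. With the thalamic level as a covariate *Epn3* was at -0.081 (limma adjusted p = 0.544). Its call was lost without each mouse except WT 15, at -0.56 to -0.40 (adjusted p = 0.0517 to 0.103). The median of the list was -0.034, beside 0.0093 over all genes. The summed level was 317 to 396 CPM in the WT libraries and 330 to 417 CPM in the cKO libraries. The more abundant genes of the list, such as *Slc4a2* (47.3 to 73.2 CPM), *Spint2* (36.8 to 63.4 CPM) and *Ace* (29.9 to 57.0 CPM), are also made outside the plexus.

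Because the members could follow how each hypothalamus was cut, marker lists of neighbouring cells and regions were set beside them. In bulk tissue, fewer cells of a type and less RNA per cell cannot be told apart. Of the ependymal cilia list 0 of 12 genes passed (summed level 75.2 to 167 CPM in WT and 79.8 to 183 CPM in cKO libraries). Of the tanycyte list 1 of 7 tested passed, where 14.1% of all tested genes did. The tanycyte sum was 74.1 to 79.6 CPM in WT and 65.4 to 88.5 CPM in cKO libraries. *Rax*, a defining tanycyte gene, was near the floor throughout. It had at most 9 reads in any library, 3 or fewer in 7 libraries, and 0 in WT 4 and WT 5. None passed among 10 oligodendrocyte, 10 tested meningeal, 8 endothelial, 5 red cell, 3 tested pituitary, 7 habenular and 9 tested cortical and striatal genes. Their summed levels overlapped between the groups, least so for the pituitary list.

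The 8 pituitary genes, hormones and factors of the anterior lobe that hangs below the hypothalamus, summed to 4.07 to 6.85 CPM in the WT libraries. The sum was 12.1 (cKO 8), 6.86 (cKO 9), 5.04 (cKO 12), 8.74 (cKO 13) and 16.0 CPM (cKO 14), so 4 of the 5 cKO libraries lay above every WT library, cKO 9 by 6.86 against 6.85 CPM. *Gh*, the growth hormone gene, was at 1.27 ± 0.964 CPM (SD, n = 7) and 4.92 ± 3.82 CPM (SD, n = 5), a ratio of 3.87 with overlapping ranges (limma log2 fold change 1.13, adjusted p = 0.112). The other tested genes of the list had ratios of 0.977 (*Tshb*) and 0.889 (*Lhb*), and the median log2 fold change of the 3 was -0.049, so the higher sum rests largely on *Gh*. The 5 genes under 1 CPM also had higher means in the libraries labelled cKO. Their ratios were 5.22 (*Prl*), 4.37 (*Fshb*), 2.25 (*Cga*), 1.72 (*Tbx19*) and 1.07 (*Pou1f1*), on at most 29 reads in any library. *Prl* had 0 reads in 2 libraries and *Fshb* in 4. *Pomc*, counted in the hypothalamic list, was at 153 CPM in cKO 14, the library highest in *Gh*, and at 3.02 to 22.9 CPM elsewhere. Of the 11 lists the pituitary list had the relation with *Clic6* farthest from 0, a Pearson r of -0.675 (permutation p = 0.0141, adjusted 0.221) and a Spearman rho of -0.727 (permutation p = 0.0102, adjusted 0.188) over 12 libraries. Without cKO 8 and cKO 14 r was -0.756, and within the 7 WT libraries it was -0.753. It did not pass after adjustment over the 110 relations, and the part of pituitary tissue in the difference of *Clic6* between the groups was not tested.

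The thalamic and hypothalamic lists had medians farther from 0. Of 9 thalamic genes 2 were lower (22.2%, where 7.60% of all tested genes were lower), *Prkcd* (169 ± 68.2 CPM, n = 7, against 64.1 ± 37.5 CPM, n = 5, limma log2 fold change -1.44, adjusted p = 0.0177) and *Rgs16* (-0.89, limma adjusted p = 0.0143), and 0 were higher. The list's median was -0.64 beside 0.0093 over all genes, and its sum was 479 to 1034 CPM in WT and 283 to 592 CPM in cKO libraries. Of 11 tested hypothalamic genes 1 was higher, *Sim1* (0.56, limma adjusted p = 0.0206), or 9.09% where 6.54% of all tested genes were higher, and the list median was 0.53. With 1 or 2 genes called, these counts say little about the lists. Without WT 11 and cKO 8 neither *Prkcd* (-1.25, limma adjusted p = 0.0678) nor *Sim1* (0.50, adjusted p = 0.0696) passed, and *Sim1* was also lost without cKO 9 (adjusted p = 0.0518), without cKO 14 (adjusted p = 0.050, just over the threshold) and with the thalamic covariate (adjusted p = 0.0698). With that covariate, built from a list that holds both genes, *Prkcd* was at -0.79 (adjusted p = 0.176) and *Rgs16* at -0.33 (adjusted p = 0.040). *Rgs16* was lost without WT 4, WT 5, cKO 12 and cKO 13 (-0.62, adjusted p = 0.0724). With the thalamic level as a covariate, a fit that called 5.78% of genes, the log2 fold change of *Clic6* was -0.87 (limma adjusted p = 0.0395). With the hypothalamic level, where 19.4% of genes were called, it was -0.56 (adjusted p = 0.0635). With the ependymal level it was -0.57 (adjusted p = 0.0401) and with the habenular level -0.58 (adjusted p = 0.0498), with 19.6% of genes called in either. It did not pass with the oligodendrocyte level, at -0.58 (adjusted p = 0.0502), or with the cortical and striatal level, at -0.55 (adjusted p = 0.0859), so the call was made with 3 of the 6 list levels. WT 4, WT 5, cKO 12 and cKO 13 had the lowest summed hypothalamic and the highest summed oligodendrocyte level. Without them *Clic6* was at -0.86 (limma adjusted p = 0.0195, with 10.3% of genes called). Without WT 11 and cKO 8 it was at -0.56 (limma adjusted p = 0.137, with 7.11% called). *Clic6* was lower in the cKO libraries in each of these fits, and no other member passed in them.

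*Ttr* was set against the same 11 lists, and 0 of its relations passed after adjustment. By Pearson r those farthest from 0 were with the endothelial list, at r = 0.62 (permutation p = 0.0334, adjusted 0.258) and rho = 0.685 (permutation p = 0.0169, adjusted 0.222), and with the ependymal list, at r = -0.584 (permutation p = 0.0477, adjusted 0.328) and rho = -0.517 (permutation p = 0.0889, adjusted 0.474). Without WT 5 and cKO 13 the first r was 0.431, and without WT 4 and cKO 8 the second was -0.624. Within the 7 WT libraries they were 0.728 and -0.552. With the pituitary list r was 0.244 (permutation p = 0.449, adjusted 0.706) and rho 0.58 (permutation p = 0.0533, adjusted 0.419), with r = 0.795 without cKO 8 and cKO 14 and 0.841 within WT. With the thalamic list r was 0.156 (permutation p = 0.631) and with the hypothalamic list -0.265 (permutation p = 0.400), both with rho on the same side of 0. With each of 6 list levels as a covariate the log2 fold change of *Ttr* ran from -0.028 (cortical and striatal) to 0.32 (thalamic), with limma adjusted p from 0.704 to 0.970.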

How the data were processed

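RNA sequencing libraries of the hypothalamus of 12 mice were made from purified messenger RNA with a NEBNext Ultra II kit, per the labels' protocols. The submitters' processing notes name bcl2fastq, FastQC 0.11.9, STAR 2.7.9a, SAMtools, Subread and featureCounts. Genome build, annotation and strand setting are not given in the sources used here. The authors deposited normalized CPM per gene and library, and a table of their test that lists, per gene, log2 values (fold change and mean CPM) and p-values with their FDR. Every CPM column was matched to a mouse by its name, and 0 columns were unused.

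All deposited CPM values (100%, within 0.01 of a whole number) were whole multiples of 1 step per library, so whole reads were recovered by division. Read intervals and floors cover counting error only. Since CPM are not counts, the main test was limma 3.58.1 (R 4.3.3, lmFit, eBayes with trend) on log2(CPM + 1), which understates changes of low genes. Genes needed a mean of at least 1 CPM over all 12 libraries. Members under it were taken from the fit over all genes above 0. edgeR 4.0.16 called 2097 genes and DESeq2 1.42.0 called 2747 on recovered reads, where limma called 2172. The fits were also run on simulated reads in which genes varied independently of each other. That does not show how they perform where tissue content differs between mice. The smallest exact permutation p is 0.00126. The labels do not say that litters or dissections were separate, so p-values measure the spread between these mice, and no batch is given. Chi-square per degree of freedom over the 31 within-group pairs was 3.04 to 26.3.

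Named were the members, *Smc3*, listed genes past the threshold (the largest 10 of the plexus list and 3 of each other list) and the 10 genes most like *Ttr*. A listed gene that the rule also named is not reported here. *Lmx1a* and the genes quoted for presence or level (*Kcnj13*, *Tmem72*, *Wfdc2*, *Nkx2-1*, *Rax*, *Slc4a2*, *Spint2*, *Ace*, *Sulf1*, *Igf2*, *Oxt*, *Avp*, *Hcrt*, *Pmch*, *Gh*, *Prl*, *Fshb*, *Tshb* and *Lhb*) were chosen after their values were seen. So were *Cga*, *Tbx19*, *Pou1f1* and *Pomc*. Members and lists were chosen with earlier results of these data known.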

Additional observations from a re-analysis of the deposited data

Results flagged for a closer look

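In 46 comparisons of 1 library with the others of its label, 5 values lay apart, and chance gives about 1 in 20, or 2.3. *Prlr* was at 56.4 CPM in WT 11, with the next WT library at 37.3 CPM. It was at 49.0 CPM in cKO 8, with the next cKO library at 25.2 CPM. *Sostdc1* was at 2.77 CPM in WT 11, with the next WT library at 1.82 CPM. The summed level of 11 meningeal genes was 71.0 CPM in WT 1, with the next WT library at 54.1 CPM. The depth of WT 1 was 68.7 M reads, with the next WT library at 24.0 M. No cause was tested for these values.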

How the results depend on the processing

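No paired analysis was possible because the groups share no mouse numbers. No member passed the limma threshold (0 of 7 tested), and the number was 2 with arrayWeights (*Clic6* and *Kl*), 1 with DESeq2, with the thalamic, habenular or ependymal level as a covariate and without WT 4, WT 5, cKO 12 and cKO 13 (*Clic6* each time), and 0 to 1 when 1 mouse was left out. Genes past the threshold numbered 2172 (1004 higher), with 5126 under arrayWeights, 887 with the thalamic covariate, 1090 without WT 11 and cKO 8, and 1158 (without WT 1) to 2302 when 1 mouse was left out. Median centring put 1377 higher and 1054 lower.

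*Clic6* was lower in the libraries labelled cKO under every alternative run, at -0.87 to -0.55 (adjusted p = 0.00223 to 0.137) and -0.70 to -0.45 when 1 mouse was left out. *Kl* was at -0.40 under arrayWeights (adjusted p = 0.0206), with up to 0.442 elsewhere, and at -0.31 to -0.15 when 1 mouse was left out. *Sostdc1* was at 0.12 to 0.33 when 1 mouse was left out. *Slc4a5*, over all genes above 0, was at -0.32 under arrayWeights (adjusted p = 0.0159), with up to 0.275 elsewhere. Its size depended on the scale, from -0.26 to -0.92 with a pseudocount of 0.1 and -1.32 in edgeR, as did that of *Aqp1*, from -0.17 to -0.62 and -0.82. *Ttr*, at 0.073 in the reported fit, moved farthest under arrayWeights (0.57, adjusted p = 0.183) and with the thalamic covariate (0.32, adjusted p = 0.704). *Epn3* was at -0.56 to -0.081 (adjusted p = 0.012 to 0.544) over the other settings and passed in 9 of 19. It did not pass with median centring (0.0528), quantile normalization (0.0602), all genes above 0 (0.0909), or eBayes without trend (0.0574) or robust (0.0531). Nor did it pass with arrayWeights (-0.27, 0.140), the thalamic or the cortical and striatal covariate (0.0632), or without either set of libraries left out together (0.145 and 0.216). Values near 0 changed sign. *Ttr* was at -0.038 in edgeR, -0.028 in edgeR over all genes with a read, -0.064 in DESeq2, -0.028 with the cortical and striatal covariate, and -0.097 to 0.27 when 1 mouse was left out. *Folr1* was at -0.059 without WT 11 and cKO 8, -0.11 with the thalamic covariate, -0.022 under arrayWeights and -0.081 to 0.12 when 1 mouse was left out. *Otx2* was at 0.030 under arrayWeights, 0.027 with the thalamic covariate and 0.089 without WT 4, WT 5, cKO 12 and cKO 13. *Enpp2* was at -0.023, -0.057 and, when 1 mouse was left out, -0.0080 to 0.17, where the first 2 values are those of arrayWeights and the thalamic covariate. The r of *Aqp1* with *Ttr* ran from -0.18 to 0.20 when 1 mouse was left out. The cause was not tested. The minimum of 5 CPM gave no value for *Ttr*, *Kl*, *Sostdc1* or members under 1 CPM. *Aqp1*, *Slc4a5* and *Folr1* rest on few reads, which limits them. The settings without more than 1 mouse, edgeR over all genes with a read, and the relations with marker lists, among members, of *Prlr* with *Sostdc1* and of *Epn3* with the thalamic list were chosen after the data were seen.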
